A study of Sus scrofa with 6 samples.

Results

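The genes described here are 6 components of the Wnt pathway, APC, TCF7, LRP5, DKK3, LGR4 and WNT8A, in whole pig embryos at embryonic day 21. They were chosen by name as Wnt pathway genes of chromosome 2 and are 6 of the 30434 gene loci in the annotation and of its 2697 loci on chromosome 2. Of the 6, 5 passed the expression filter and WNT8A had no count in any embryo. None of the 5 passed the threshold for a difference between parthenogenetic and control embryos, which 6.54% of all genes tested passed.

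RNA was measured in 3 parthenogenetic embryos (PA1, PA2 and PA3; label parthenogenesis) and 3 control embryos (CN1, CN2 and CN3; label untreated), all Landrace x Yorkshire x Duroc (LYD). By the study's methods, the PA embryos came from oocytes that were matured in vitro, activated by electric pulses and carried to day 21 by surrogate gilts, so that both of their genomes are maternal, whereas the CN embryos were fertilized by natural mating. The deposited CN tables carry the letters AI in their names, with no explanation, so how these embryos were conceived rests on the methods alone. Embryos of similar size were chosen after recovery. The groups therefore also differed in oocyte donors, oocyte maturation and embryo transfer, and these differences cannot be told apart from parthenogenesis. The methods name 2 gilts per group, so at least 2 of the 3 embryos in each group shared a gilt, and nothing states which. These gilts were the dams in CN but surrogates in PA, whose oocytes came from slaughterhouse ovaries of unstated donors. The p-values measure the spread between these embryos, not between gilts or oocyte donors. Because whole embryos were sequenced, fewer cells of a type and less RNA per cell cannot be told apart.

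The total estimated count was 3100284 to 3276414 in CN and 3360478 to 3573406 in PA, and transcripts annotated on chromosome 2 took 82.8% to 92.7% of it. Transcripts absent from the annotation took 6.91% to 7.77% in CN and 8.44% to 16.9% in PA, the most in PA1. TPM (a level per transcript length, scaled to a fixed sum per embryo) was thus relative mainly to chromosome 2, and levels given as normalized CPM (counts scaled to a fixed total by TMM factors and a length offset) are the ones to compare between embryos. The paternally expressed IGF2 was at 14375 to 19298 TPM in CN and at 278 to 544 TPM in PA. Over all 1652 genes tested, 108 passed an adjusted p-value of 0.05, or 6.54%, of which 35 were higher and 73 lower in PA.

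In the canonical Wnt pathway, a secreted Wnt ligand binds a Frizzled receptor together with LRP5 or LRP6 at the cell surface. This stops a destruction complex, built around APC and AXIN, from marking β-catenin for degradation, and β-catenin then enters the nucleus and switches on genes through the TCF and LEF factors. In the early embryo the pathway is known for its part in forming the primitive streak, extending the body axis and maintaining progenitors of many organs.

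By TPM, the level per transcript length was, from highest to lowest, in the order DKK3, LGR4, LRP5, APC, TCF7 and WNT8A, and each neighbouring pair stood in this order in 6 of 6 embryos. Mean TPM ranged from 477 for DKK3 over 402 for LGR4, 306 for LRP5 and 190 for APC to 77.8 for TCF7. Within an embryo, DKK3 was 1.11 to 1.29 times LGR4, LGR4 was 1.23 to 1.54 times LRP5, and LRP5 was 1.34 to 1.84 times APC. The ranges of these neighbours over the 6 embryos overlapped. APC exceeded TCF7 2.15 to 2.72 times within an embryo, and the ranges of APC (133 to 244 TPM) and TCF7 (56.0 to 100 TPM) did not overlap.

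**Figure D1:**
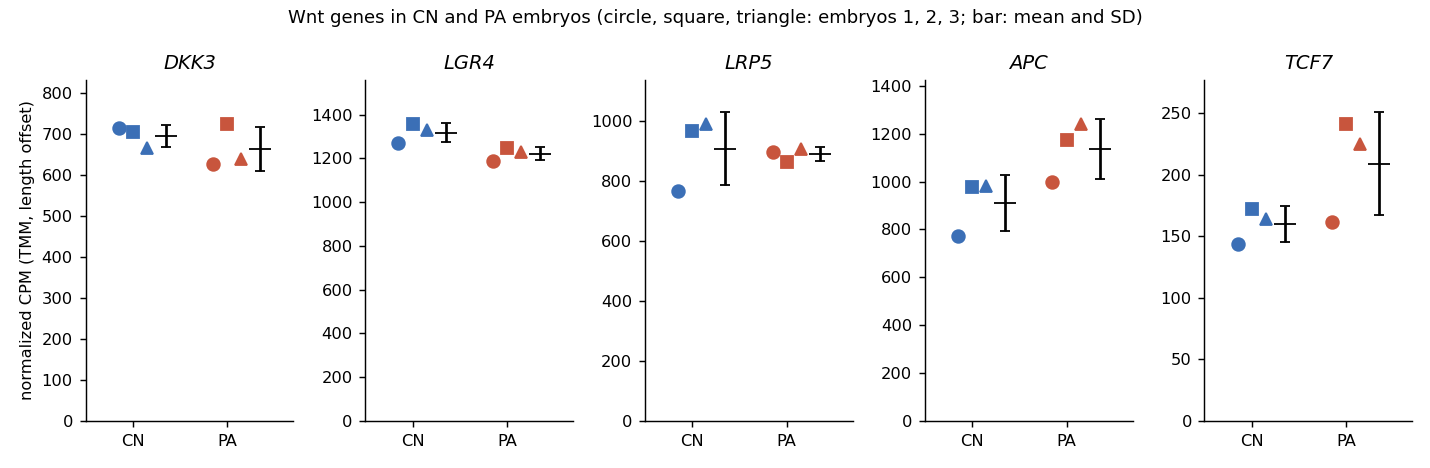
Normalized CPM (vertical axis from 0, one scale per gene) of the 5 detected Wnt genes in the CN embryos (blue) and PA embryos (red). Symbols mark embryos 1, 2 and 3, and the black bar gives the mean and SD of 3 embryos. The groups overlap for DKK3, LRP5 and TCF7 and stand apart on this scale for LGR4 and APC.

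WNT8A (gene 100739710; Sscrofa11.1 chromosome 2, plus strand, 140103322 to 140113682) encodes a ligand of the canonical pathway that acts early in the patterning of mesoderm and neural tissue. Its 1 transcript had 0 estimated counts in all 6 embryos. Taking 3 counts as the smallest detectable amount, a level of up to 0.216 to 0.270 TPM, depending on the embryo, would have been missed. This floor covers counting error only. LOC102167109 on the opposite strand shares 162 exon bases with WNT8A and was also at 0 counts in all 6 embryos.

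DKK3 (gene 664653; chromosome 2, plus strand, 47385244 to 47444664) encodes a secreted glycoprotein of the Dickkopf family. Unlike DKK1, which blocks LRP5 and LRP6, it is not known to act by binding these receptors. Its TPM was the highest of the 6, and its normalized CPM, which is not divided by length, was 715, 705 and 664 in CN1, CN2 and CN3 and 626, 723 and 639 in PA1, PA2 and PA3. PA2 was the highest embryo for this gene and the groups overlapped. The log2 fold change, PA over CN, was -0.068 (95% interval -0.26 to 0.13, adjusted p = 0.699 from edgeR), and TPM was 500 ± 40.1 (SD, n = 3) in CN and 455 ± 54.5 (SD, n = 3) in PA.

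LRP5 (gene 100524299; chromosome 2, minus strand, 4533721 to 4653997) encodes the co-receptor that pairs with Frizzled. Its normalized CPM was 768, 968 and 990 in CN1, CN2 and CN3 and 898, 865 and 908 in PA1, PA2 and PA3. CN1 was the lowest embryo and CN3 the highest, with all PA embryos between them. The log2 fold change was -0.030 (95% interval -0.27 to 0.21, adjusted p = 0.896 from edgeR), and it was 0.030 without CN2 and 0.056 without CN3, so the data give no direction. TPM was 318 ± 65.8 (SD, n = 3) in CN and 295 ± 28.6 (SD, n = 3) in PA.

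LGR4 (gene 100518646; chromosome 2, plus strand, 32871837 to 32979150) encodes a receptor for R-spondins, secreted proteins that raise the response to Wnt by keeping Frizzled at the cell surface. Normalized CPM was 1268, 1356 and 1329 in CN1, CN2 and CN3 and 1188, 1246 and 1228 in PA1, PA2 and PA3. Every PA embryo lay below every CN embryo on this scale, by a gap that is small beside the levels, whereas in TPM the groups overlapped. The log2 fold change was -0.11 (95% interval -0.27 to 0.052, adjusted p = 0.423 from edgeR). TPM was 427 ± 50.4 (SD, n = 3) in CN and 377 ± 38.8 (SD, n = 3) in PA.

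APC (gene 100517932; chromosome 2, minus strand, 116913354 to 116985303) encodes the scaffold of the complex that marks β-catenin for degradation, which makes it an inhibitor of the pathway. It had 775, 976 and 982 normalized CPM in CN1, CN2 and CN3 and 996, 1172 and 1239 in PA1, PA2 and PA3. All PA embryos were above all CN embryos, although PA1 exceeded CN3 only slightly, and in TPM the groups overlapped. Fitted over all genes, APC was 1.25 times as high in PA as in CN (95% interval 1.03 to 1.51), a log2 fold change of 0.32 with a standard error of 0.12. The unadjusted p-value was 0.0298 and the adjusted p-value 0.174 (edgeR), so APC did not pass. Without CN1, the lowest embryo for this gene, the log2 fold change was 0.22 (adjusted p = 0.239 from edgeR). TPM was 174 ± 35.6 (SD, n = 3) in CN and 207 ± 39.7 (SD, n = 3) in PA.

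TCF7 (gene 100512951; chromosome 2, plus strand, 136422740 to 136456323) encodes TCF1, a DNA-binding partner of β-catenin that is best known from T cells and that also acts in the early mesoderm. Normalized CPM was 144, 172 and 164 in CN1, CN2 and CN3 and 162, 241 and 225 in PA1, PA2 and PA3. PA2 and PA3 were above all CN embryos, and PA1 lay among them. The log2 fold change was 0.39 (standard error 0.16, 95% interval 0.028 to 0.75), or 1.31-fold (1.02 to 1.68), with an unadjusted p-value of 0.0378 and an adjusted p-value of 0.201 from edgeR. Without PA1, the log2 fold change was 0.55 and the adjusted p-value 0.0331, so the call rests on whether this embryo is kept. PA1 also stood apart from the other PA embryos. The chi-square per degree of freedom between libraries was 66.0 for PA1 and PA2 and 95.1 for PA1 and PA3, against 20.5 for PA2 and PA3, unannotated transcripts took the most counts in PA1, and the summed level of 5 liver markers was 7918 TPM there and 5630 and 5265 TPM in PA2 and PA3. The part of these differences in the result was not tested. CN1 likewise stood apart from the other CN embryos. The same chi-square was 30.7 for CN1 and CN2 and 26.8 for CN1 and CN3, against 5.80 for CN2 and CN3. TPM was 69.1 ± 11.9 (SD, n = 3) in CN and 86.5 ± 22.4 (SD, n = 3) in PA.

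Of the 5 genes tested, 2 were higher and 3 lower in PA, with 0 past an adjusted p-value of 0.05 in edgeR, where the share over all genes was 6.54%, so that 0 of 5 is near that share. At an unadjusted p-value below 0.05 there were 2, APC and TCF7, where the share over all genes tested was 21.2%. DESeq2 also called 0 of the 5 after adjustment, where it called 162 of 1786 genes, or 9.07%. On normalized CPM the groups did not overlap for 2 of the 5, LGR4 and APC, where 28.3% of all genes tested did not overlap, and on TPM for 0 of the 5, where the share was 21.6%. On log2(TPM + 0.1), the two-sided exact permutation test gave p = 0.5 for DKK3, 0.8 for LRP5, 0.3 for LGR4, 0.4 for APC and 0.3 for TCF7, and 3 embryos against 3 cannot give less than 0.1. The median log2 fold change of the 5 was -0.030, against 0.016 over all genes tested, and their median absolute log2 fold change was 0.11, against 0.17. The intervals bound the differences that remain possible: for DKK3, LRP5 and LGR4 the lower ends were -0.26, -0.27 and -0.27 on the log2 scale, and for APC and TCF7 the upper ends were 0.60 and 0.75.

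**Figure D2:**
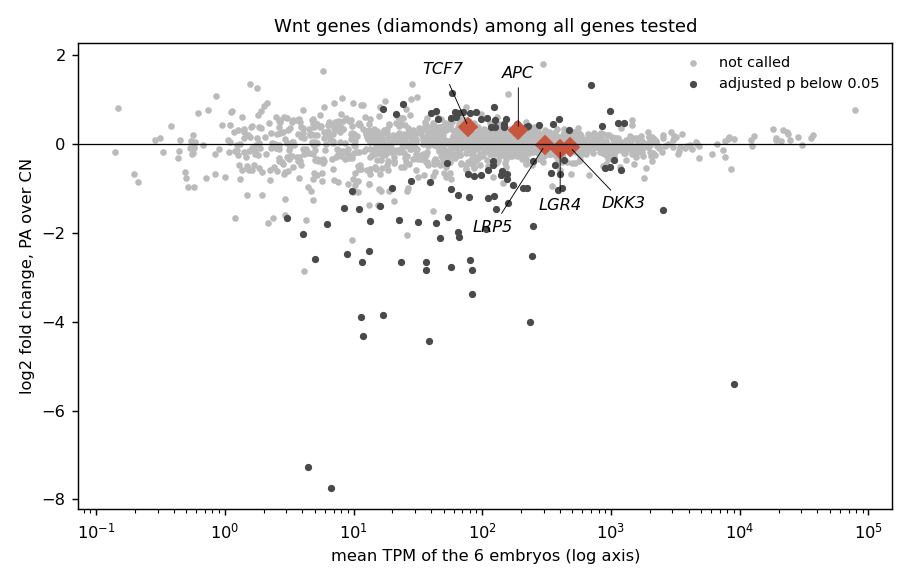
Log2 fold change, PA over CN (vertical axis), against the mean TPM of the 6 embryos (horizontal log axis) for all genes tested; dark points passed an adjusted p-value of 0.05 in edgeR. The 5 Wnt genes (red diamonds) lie near 0, between -0.11 for LGR4 and 0.39 for TCF7, and none is among the dark points.

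The 5 detected genes differed in how many transcripts carried them. APC had 1 annotated transcript, LGR4 2, DKK3 3, LRP5 5 (3 of them detected) and TCF7 9 (5 of them detected). Salmon divides reads among transcripts that share exons, and the error of that division was not analysed here. At the transcript level, edgeR passed 9 of 3487 transcripts, or 0.258%, and DESeq2 260 of 4431, or 5.87%. Of the 13 transcripts of the Wnt genes tested, edgeR passed 0, with 2 at an unadjusted p-value below 0.05. The share of all transcripts below that p-value was not computed, so nothing is read from these 2. DESeq2 passed 1, an internal transcript of LGR4 that is also 1 of those 2. It passed the expression filter of edgeR through the CN embryos alone.

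LGR4 was carried almost wholly by XM_021083233.1, with 99.5% of its TPM in CN and 99.9% in PA (two-sided exact permutation test, p = 0.1). The remainder belonged to XM_013994475.2, which starts inside the first intron of XM_021083233.1, with a first exon of 2046 bases from 32907051 to 32909096. It is singled out here after its values were seen. Its estimated counts were 28, 30 and 28 in CN1, CN2 and CN3 and 0, 6 and 2 in PA1, PA2 and PA3. Every CN embryo was well above the PA embryos, of which PA1 and PA3 were under the detection floor of 3 counts. TPM was 2.28 ± 0.278 (SD, n = 3) in CN and 0.219 ± 0.238 (SD, n = 3) in PA. The log2 fold change was -3.41 (standard error 1.14) with an adjusted p-value of 0.390 in edgeR, while DESeq2 gave -3.49 with an adjusted p-value of 0.0111, so the call depends on the tool. It reached the minimum count of 10 in the CN embryos alone, so edgeR tested it only because it is high there. DESeq2 was run without that filter. As the transcript was picked for its values, they are a description. The 150 bases before each start are shown so that the internal start, whose counts did not overlap between groups, can be set beside the main one. Capitals mark CG dinucleotides, and the sequence is from Sscrofa11.1, plus strand.
LGR4 main start (XM_021083233.1), chr2:32871687-32871836: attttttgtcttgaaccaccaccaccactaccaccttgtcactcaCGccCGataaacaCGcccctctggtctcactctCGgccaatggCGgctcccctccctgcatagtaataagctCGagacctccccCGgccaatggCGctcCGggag
LGR4 internal start (XM_013994475.2), chr2:32906901-32907050: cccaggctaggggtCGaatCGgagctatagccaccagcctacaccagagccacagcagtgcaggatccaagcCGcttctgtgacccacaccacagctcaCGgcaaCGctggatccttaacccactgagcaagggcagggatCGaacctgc
The main start has 9 CG dinucleotides in this stretch and the internal one 6, with a GC content of 58.7% and 60.7%. The whole of the internal stretch, 100%, is marked as repeat sequence in the reference (lower-case bases of the assembly file), against 18.0% of the main one, and 22.4% of the internal first exon is so marked.

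LRP5 had a main transcript, XM_021082720.1, with 77.3%, 69.1% and 73.8% of the gene's TPM in CN1, CN2 and CN3 and 73.7%, 78.7% and 77.1% in PA1, PA2 and PA3. The mean was 73.4% in CN and 76.5% in PA (two-sided exact permutation test, p = 0.5). The second, XM_021082721.1, begins inside the gene with a first exon of 28 bases, from 4652796 to 4652823, and held 20.2%, 26.0% and 21.1% in CN and 19.8%, 14.7% and 13.8% in PA. Its share was lower in every PA embryo than in every CN embryo, although PA1 and CN1 were close. Its own log2 fold change was -0.50 (95% interval -1.10 to 0.090, adjusted p = 0.580 from edgeR), which did not pass. XM_021082721.1 also differs from XM_021082720.1 outside the first exon: it has 4887 bases with a first exon of 28, against 5026 with 197. An outer-start transcript, XM_021082719.1, had 0 counts. Whether the share of XM_021082721.1 reflects its inner start or the other difference was not tested. The third, XM_021082723.1, ends early, at 4540248, and is named after its values were seen. It held at most 5.09% of TPM in a CN embryo and 6.46%, 6.56% and 9.12% in PA1, PA2 and PA3. Its log2 fold change of 0.78 (standard error 0.42) had an adjusted p-value of 0.673 (edgeR). The stretches before the outer start of the gene and before the start of XM_021082721.1 are shown because they differ sharply in composition. They are printed 5′ to 3′ on the minus strand with CG in capitals.
LRP5 outer start (XM_021082723.1), chr2:4653998-4654147: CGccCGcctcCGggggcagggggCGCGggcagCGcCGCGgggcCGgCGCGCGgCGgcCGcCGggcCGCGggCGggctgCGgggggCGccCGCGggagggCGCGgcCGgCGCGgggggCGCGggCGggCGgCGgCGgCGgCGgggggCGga
LRP5 inner start (XM_021082721.1), chr2:4652824-4652973: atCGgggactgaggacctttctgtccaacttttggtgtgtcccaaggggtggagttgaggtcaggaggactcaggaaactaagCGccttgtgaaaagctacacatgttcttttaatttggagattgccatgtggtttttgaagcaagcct
The outer stretch holds 36 CG dinucleotides at a GC content of 96.0%, and the inner one 2 at 47.3%.

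DKK3 was carried by transcripts with separate first exons. NM_001039749.1 held 48.4%, 51.2% and 54.9% of TPM in CN1, CN2 and CN3 and 52.3%, 51.9% and 54.4% in PA1, PA2 and PA3 (two-sided exact permutation test on the share, p = 0.5). XM_005661123.3 held 50.4%, 48.2% and 44.7% in CN and 44.3%, 46.7% and 45.6% in PA. The pair were at similar levels in all 6 embryos, and neither share separated the groups by more than the spread between embryos. Their log2 fold changes were -0.016 (adjusted p = 0.981) and -0.12 (adjusted p = 0.840), both from edgeR.

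TCF7 transcripts matter for what the protein can bind, because a longer form of the factor carries a second DNA-binding element, the C-clamp. The 4 detected coding transcripts differ by 2 choices near the 3′ end. The first is a cassette exon of 73 bases (136452051 to 136452123), which in these models always goes with a further exon of 93 bases upstream (136448172 to 136448264), and the second is an extension of the last exon by 23 bases at its start (136453569 to 136453591). Both pieces are shown, plus strand, with the codons of the core of the C-clamp in capitals.
TCF7 cassette exon, chr2:136452051-136452123: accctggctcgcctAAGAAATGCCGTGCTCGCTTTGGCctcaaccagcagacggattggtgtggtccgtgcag
TCF7 extension, chr2:136453569-136453591: ataactctcttcactattcctag
The length of the cassette is not a multiple of 3, so it shifts the reading frame of the last exon, and in both transcripts with the extension the coding sequence ends inside it. XM_021084755.1 has the cassette without the extension and the longest coding sequence, 1701 bases. XM_021084757.1 has both pieces and 1452 coding bases, counted from an earlier coding start (136422742, against 136422940 in the other 3). XM_021084760.1 has the extension alone and 1107 coding bases, and XM_021084759.1 has neither and 1164.

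XM_021084759.1 had the largest mean share over the 6 embryos, with 44.9%, 47.0% and 33.9% of TCF7 TPM in CN1, CN2 and CN3 and 43.6%, 23.4% and 45.4% in PA1, PA2 and PA3 (mean 41.9% in CN and 37.5% in PA, two-sided exact permutation test, p = 0.6). XM_021084760.1 took 30.0%, 29.6% and 38.1% in CN and 30.3%, 51.2% and 31.5% in PA, where PA2 stood out in both transcripts. Its mean in PA, 37.7%, was level with that of XM_021084759.1. XM_021084757.1 took 21.1%, 19.3% and 21.2% in CN and 20.7%, 12.5% and 13.5% in PA. The log2 fold changes of these 3 were 0.20, 0.65 and -0.056, with adjusted p-values of 0.909, 0.736 and 0.968 from edgeR. Without PA2, that of XM_021084760.1 was 0.20. The fourth coding transcript, XM_021084755.1, named after its values were seen, held under 10% of TPM in both group means and had 16, 21 and 38 estimated counts in CN1, CN2 and CN3 and 30, 107 and 72 in PA1, PA2 and PA3. Its log2 fold change, 1.44 (standard error 0.63), was the largest of the 4 and did not pass (adjusted p = 0.535 from edgeR and 0.248 from DESeq2).

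The detected coding transcripts of TCF7 were also summed, a grouping made after the values were seen and given without a test. Shares here are of the summed TPM of these transcripts, without the non-coding ones. The C-clamp cassette was present in 24.6%, 23.0% and 28.0% of it in CN and in 26.1%, 25.4% and 22.5% in PA. The mean was 25.2% ± 2.52 (SD, n = 3) in CN and 24.6% ± 1.92 (SD, n = 3) in PA, with overlapping groups. The extension was present in 53.3% ± 5.37 (SD, n = 3) of the TPM of these coding transcripts in CN and 53.3% ± 9.42 (SD, n = 3) in PA. Most coding TCF7 RNA in both groups thus lacked the cassette.

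**Figure D3:**
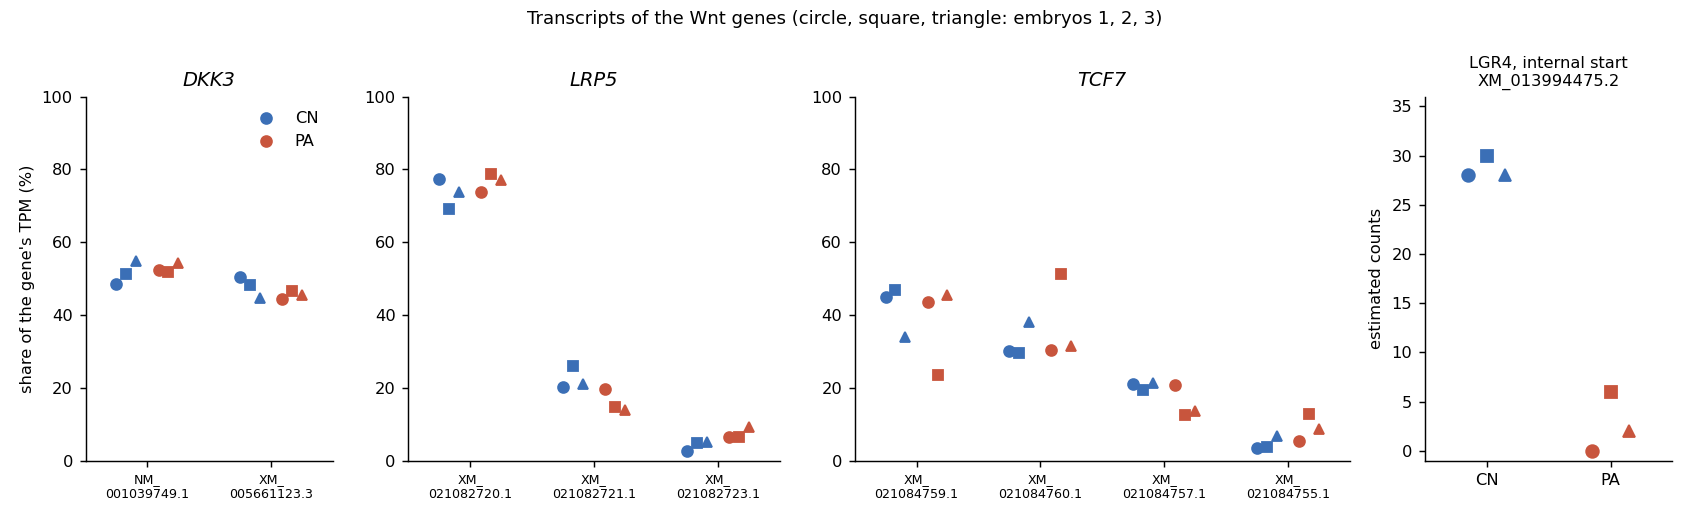
Share of the gene's TPM (percent, vertical axes 0 to 100) held by each transcript of DKK3, LRP5 and TCF7 in CN (blue) and PA (red) embryos, and, on the right, the estimated counts of the internal LGR4 transcript. In LRP5 the share of XM_021082721.1 is lower in each PA embryo than in each CN embryo, in TCF7 PA2 stands apart, and the LGR4 transcript was counted 28 to 30 times per CN embryo and 0 to 6 times per PA embryo.

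Some Wnt target genes carry binding sequences for TCF and LEF factors near their start. Windows of 250 bases before the annotated start of each gene were searched on both strands for the motif CTTTGAT, for its variant CTTTGTT, for a further variant CTTTGAA and for the last one, CTTTGTA. None of the 6 gene windows held one, while 12.6% of 2675 windows of chromosome 2 genes did, so with 6 windows nothing can be read from this count. In TCF7 itself a CTTTGAT lies across the annotated gene start, and the windows of 4 of its transcripts, which start a few bases further in, do hold it. The 150 bases that end at the start of XM_021084759.1, one of these, are shown with the match in capitals.
TCF7 start (XM_021084759.1), plus strand, chr2:136422597-136422746: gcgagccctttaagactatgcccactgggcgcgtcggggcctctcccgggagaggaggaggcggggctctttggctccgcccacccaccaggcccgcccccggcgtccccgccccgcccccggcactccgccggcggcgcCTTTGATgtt
The 250-base window of this transcript has 21 CG dinucleotides and a GC content of 66.0%, against a median of 8 and 54.0% for chromosome 2 genes. The match is a description of the letters, not of a bound site.

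To set the 6 genes among the rest of the pathway, a list of 101 Wnt components was used, of which 25 lie on chromosome 2, the 6 genes included. Of the other 19, 18 were tested, and 0 passed an adjusted p-value of 0.05 in edgeR, in either direction, beside 6.54% of all genes. DESeq2 passed 2 of the 18, beside 9.07% of all genes, and 4 had an unadjusted p-value below 0.05 in edgeR, all higher in PA, beside 21.2% of all genes. These counts are near the shares over all genes. Their median log2 fold change was 0.12, with 14 of 18 positive, and ranged from -0.13 to 0.79. TLE6 alone was under the filter.

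Of the components with the most RNA, none passed an adjusted p-value of 0.05 in edgeR, while CTNNA1 and KAT5 had unadjusted p-values of 0.0375 and 0.0303. In TPM the groups did not overlap for 5 of the 18, among them PPP2CA and CXXC5, lower in every PA embryo, and KAT5, higher in each, and this is near the 21.6% of all genes. SKP1, a subunit of the ubiquitin ligase that receives β-catenin, was at 2262 TPM on average in CN and 2243 in PA. The catalytic phosphatase subunit PPP2CA was at 1780 and 1556 TPM, and the kinase CSNK1A1, which places the first phosphate on β-catenin, at 1059 and 1064. Among the nuclear factors, AES, a short co-repressor of the Groucho family, was at 2233 TPM in CN and 2229 in PA, and the chromatin remodeller SMARCA4 at 1109 and 1159. The acetyltransferase KAT5 was at 217 and 241 TPM. CTNNA1, which ties β-catenin to actin at cell junctions, was at 1637 TPM in CN and 1766 in PA, and CTNND1, which steadies cadherins there, at 236 and 236. The casein kinases CSNK1G2 and CSNK1G3, which phosphorylate LRP5 and LRP6, were at 678 and 183 TPM in CN and at 629 and 201 in PA, and CXXC5, a negative regulator that binds Dishevelled, at 610 and 530.

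WNT3A and APC2, named after their values were seen, were the list genes nearest to the threshold. WNT3A, the ligand that maintains the progenitors of the body axis, had 16.4, 19.0 and 22.6 TPM in CN1, CN2 and CN3 and 28.4, 38.2 and 28.9 in PA1, PA2 and PA3. Its log2 fold change was 0.79 (standard error 0.20), with an adjusted p-value of 0.0521 in edgeR and 0.00765 in DESeq2. APC2, a relative of APC that is expressed mainly in the nervous system, had 77.7, 113 and 128 TPM in CN and 129, 143 and 166 in PA, and a log2 fold change of 0.53 (standard error 0.13), with an adjusted p-value of 0.0521 in edgeR and 0.00650 in DESeq2. All PA embryos were above all CN embryos for both genes, and both fell just short in edgeR and passed in DESeq2.

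**Figure D4:**
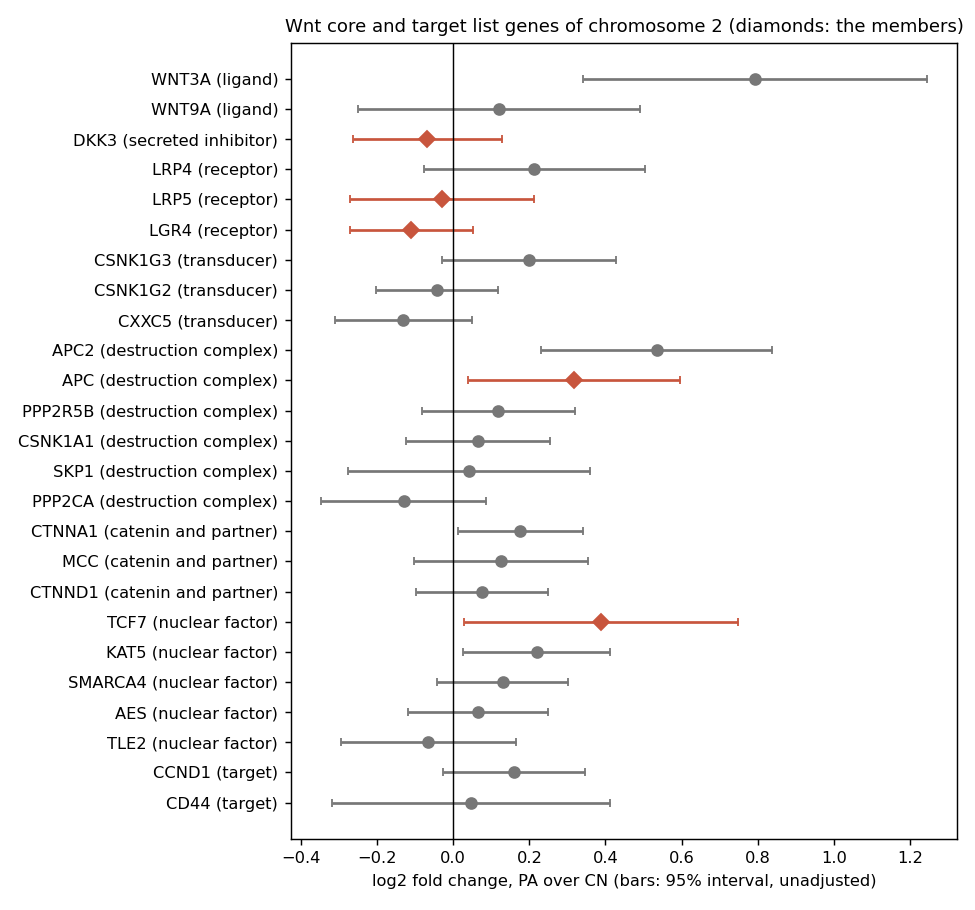
Log2 fold change, PA over CN, with its unadjusted 95% interval (horizontal axis) for the Wnt component and target genes tested on chromosome 2, ordered by role; red diamonds are the 5 Wnt genes described here. The intervals of DKK3, LRP5 and LGR4 include 0, those of APC and TCF7 lie above it, and WNT3A has the largest value, 0.79.

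Of 20 common target genes of the pathway, 4 lie on chromosome 2 and 2 were tested. CCND1, which drives entry into the cell cycle, was at 491 TPM in CN and 524 in PA, with a log2 fold change of 0.16 (adjusted p = 0.316 from edgeR). CD44, a receptor for hyaluronan, was at 28.7 and 28.3 TPM, with a log2 fold change of 0.047 (adjusted p = 0.892 from edgeR). CDX1 and FOSL1 were under the filter.

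Markers of several tissues differed between the groups and stand beside every comparison of whole embryos. Of 5 neural markers, 4 rose in PA, PAX6, SYT13, DPYSL3 and NRXN2. The summed level of the 5 was 1140 to 1426 TPM in CN and 1660 to 1927 in PA. Most of this sum was DPYSL3, at 951 to 1168 TPM in CN and 1330 to 1545 in PA. Of a list of 5 muscle markers, 2 fell, TNNI2 of fast skeletal muscle and MYBPC3, which encodes the cardiac form of its protein, with a sum of 757 to 902 TPM in CN and 407 to 475 in PA. Without MYBPC3, the sum of the 4 skeletal muscle markers was 504 to 563 TPM in CN and 284 to 293 in PA. Of 6 kidney tubule markers tested, 3 fell, SLC22A8, SLC22A12 and SLC34A1, with a sum of 517 to 799 TPM in CN and 105.6 to 215 in PA. WT1, the 1 coelomic and mesonephric marker on chromosome 2, fell by 0.47 on the log2 scale (adjusted p = 0.0217 from edgeR). None of 5 liver, 2 erythroid and 4 macrophage markers passed in edgeR, with 2 at an unadjusted p-value below 0.05, and DESeq2 passed 1 of them, the erythroid factor KLF1. The trophoblast marker PAG6 was at 0 in CN and at most at 0.413 TPM in PA. The neural markers moved in the direction of APC, TCF7, WNT3A and APC2, and the part of tissue make-up in those values was not tested.

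For each detected gene, the 2 genes of the table with the most similar profile were found by the root mean square difference of centred log2 normalized values over the 6 embryos. VPS37C and GRAMD2B were nearest to LGR4, at 0.0300 and 0.0311, where the median gene was at 0.207. PGPEP1 and RUFY1 were nearest to DKK3, at 0.0468 and 0.0524, and GRPEL2 and EVI5L to LRP5, at 0.0415 and 0.0490. NSD1 and EDIL3 were nearest to APC, at 0.0455 and 0.0464, and KIAA0825 and ACER1 to TCF7, at 0.0358 and 0.0685, against medians of 0.287 and 0.323. None of these 10 genes passed an adjusted p-value of 0.05 in edgeR, and with 6 embryos the likeness is a description.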

How the data were processed

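RNA of 3 PA and 3 CN whole embryos was measured with an unstranded poly(A) kit. The authors ran Salmon 1.3.0 (mapping-based) against the pig transcriptome and deposited, per embryo, an estimated count per transcript, not normalized, and TPM values over the 81496 transcripts listed. STAR 2.7.5, Picard and SAMtools are also named in the submitters' processing notes. Transcripts were joined to genes and positions by Sscrofa11.1 (NCBI RefSeq), which also gave the sequences.

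Estimated counts were summed per gene, rounded and tested in R 4.3.3 with edgeR 4.0.16. The steps were TMM, average transcript length offset, filterByExpr (minimum count 10, total 15) and a robust quasi-likelihood test, two-sided. Benjamini-Hochberg adjustment was over the 1652 genes tested, with a threshold of 0.05. Standard errors are the log2 fold change over the square root of F. The procedure was tested on simulated data. DESeq2 1.42.0, no filter, at least 10 counts in every embryo, no length offset, library totals, chromosome 2 genes alone, a replicate block and leaving out each embryo were alternatives, and for TPM a pseudocount of 1 in place of 0.1 and other scaling. Within groups no pair of libraries agreed within sampling noise. 3 counts were 0.84 to 0.968 CPM.

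The genes, the pathway and marker lists and the tests were chosen with earlier results of these data known. Named were the 6 genes with their values, list genes past the threshold, up to 12 other list genes with the highest TPM, the 2 most similar profiles per gene, and transcripts with at least 10% of a gene's TPM; others are named as chosen later. The marker genes named are those that passed in edgeR, PAG6, the 1 trophoblast marker on chromosome 2, and KLF1, which passed in DESeq2 alone.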

Additional observations from a re-analysis of the deposited data

How the results depend on the processing

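The 28 results were recomputed under alternative settings, which gave 279 values. Of these, 10 changed the sign, 12 passed a threshold that was missed before, 0 lost it, 13 moved a count by over 1.5 times, and the other 244 left the sign and the call as they were or moved a count by no more than that. All genes called, 108 as reported, were 162 with DESeq2 and 95 to 126 under the other settings that kept within it with all 6 embryos. Without the expression filter, APC had a log2 fold change of 0.32 and an adjusted p-value of 0.0493 (edgeR), 1 of the 6 genes was called, 2 Wnt list genes were called, and 196 genes in all. Leaving out each embryo in turn gave 0 to 1 of the 6 genes called, where the 1 was TCF7 without PA1. For APC, the log2 fold change ranged from 0.22 (without CN1) to 0.41 (without PA1). The log2 fold change ranged from -0.13 to 0.056 for LRP5, from -0.13 (without PA2) to -0.020 (without PA1) for DKK3 and from 0.27 to 0.55 for TCF7, the difference in log2 TPM from -0.27 to 0.014 for LRP5, from -0.20 to -0.036 for DKK3, from -0.27 to -0.095 for LGR4 (these upper ends without CN2, PA1 and PA1), from 0.071 (without CN1) to 0.41 (without PA1) for APC and from 0.16 (without CN1) to 0.54 (without PA1) for TCF7, and all genes called from 48 to 128 (48 without CN2, 54 without CN3, 58 without PA2 and 70 without PA3). Wnt list genes called were 2 with DESeq2 or with no length offset, 1 with chromosome 2 genes alone or the replicate block, and 0 to 1 with an embryo left out. For transcripts, leaving out an embryo moved the log2 fold change of NM_001039749.1 from -0.082 to 0.019, of XM_021082720.1 from -0.043 to 0.13, of XM_021084759.1 from -0.062 to 0.36, of XM_021084760.1 from 0.20 (without PA2) to 0.90, of XM_005661123.3 from -0.23 (without PA2) to -0.078 (without PA1), of XM_021082721.1 from -0.70 to -0.34 (without CN2), of XM_021084757.1 from -0.13 (without CN1) to -0.0038 (without CN3) and of XM_013994475.2 from -4.77 to -2.86. Library totals gave -0.028 for XM_021082720.1, and DESeq2 gave -3.49 for XM_013994475.2. Differences in the share of TPM ranged from -0.14 to 3.07 percentage points for NM_001039749.1, from 0.98 (without CN2) to 5.05 (without CN1) for XM_021082720.1 and from -8.50 to 2.57 for XM_021084759.1. The cause was not tested. With library totals, the median over all tested genes shifted by -0.042 on the log2 scale.

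PA and CN embryos share replicate numbers in their labels but are different embryos. Deviations of same-numbered embryos correlated at 0.254, 0.122 and 0.0425 across 1652 genes, and not every embryo correlated best with its own number, so the numbers were not taken to pair them. With the replicate block, APC had an adjusted p-value of 0.0534, TCF7 a log2 fold change of 0.37 with an adjusted p-value of 0.0970, WNT3A an adjusted p-value of 0.101 and APC2 one of 0.0380 (edgeR), so that of these only APC2 was called. At this depth, WNT8A and the internal LGR4 transcript in PA1 and PA3 were not detectable or were under 3 counts.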
